A study of Mus musculus with 2 samples.

Results

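Single-cell RNA sequencing was applied to metastases that the mouse triple-negative breast cancer line 4T1 formed in the liver, and the cells described here are the cancer cells of 7 fine clusters that took up a larger share of the cancer cells when Zdhhc17 had been silenced. The cells came from metastases of shZdhhc17 cells, which carried a short hairpin RNA against Zdhhc17, and from metastases of shSCR cells, which carried a non-targeting scrambled hairpin. Both lines were made with the lentiviral pLKO.1 vector and puromycin selection, so only the injected cells carried a hairpin and the host cells of the liver did not. In each group 250000 cells were injected into the spleens of female BALB/c mice aged 6-8 weeks, the spleen was then removed, and metastases were dissected on day 14. Equal numbers of cells from 3 mice were pooled per group, which gave 1 library per group in which single mice cannot be told apart.

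The members were chosen from the authors' initial clustering of all cells. Among cells annotated as cancer cells, a cluster of at least 50 cancer cells was a member if its cells had a median of at least 2000 UMIs (molecule counts) and if its share of the shZdhhc17 cancer cells was at least 2 times its share of the shSCR cancer cells. The clusters were thus chosen by the shares of the libraries, and these shares are given as a description with no test. The rule found clusters 1, 3, 32, 34, 35, 49 and 62, with 3385 of 14135 cancer cells and of 44371 cells in all. Of the 3385 cells, 2661 came from the shZdhhc17 library and 724 from the shSCR library. With 1 library per group, a cluster held mostly by 1 library may reflect that library rather than a cell state, and the effects of the hairpin, the mice and the library cannot be told apart.

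Zdhhc17 encodes a palmitoyltransferase of the Golgi, an enzyme that attaches the fatty acid palmitate to cysteines of other proteins and so helps anchor them to membranes. Mammary carcinoma cells such as 4T1 keep an epithelial programme, with keratins such as Krt8 and Krt18 in their intermediate filaments and the adhesion protein Epcam at the cell surface. Tumour cells growing in an organ also differ among themselves in proliferation, oxygen supply and their contacts with host cells, and fine clustering of single cells sorts them by such differences in RNA.

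The cancer cell label of the members rests on the authors' annotation. All cells of the 7 clusters were annotated as cancer cells, and none carried a doublet, unknown or other cell type label. Krt8, Krt18 and Epcam were listed among the 28523 genes of the full data set, but their levels per cell were not analysed here, so the annotation could not be checked against these genes and the genes that set the 7 clusters apart are not named. Position on the authors' UMAP, a map that places cells with similar RNA side by side, places them among the other cancer cells. Among the 30 nearest neighbours of each enriched cell on the map of all cells, 0 of 101550 neighbours were annotated as anything other than a cancer cell. Since 92.6% of these neighbours came from the cell's own cluster, which carries the same annotation, and the map was built from the same genes, this is no independent check of the label.

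The enriched clusters together made up 33.6% of shZdhhc17 cancer cells (exact 95% binomial interval 32.5 to 34.6, 2661 of 7928 cells) and 11.7% of shSCR cancer cells (10.9 to 12.5, 724 of 6207 cells). The ratio of the shares was 2.88, with a counting interval of 2.67 to 3.10. They held 40.6% of the UMIs of shZdhhc17 cancer cells and 13.5% of those of shSCR cancer cells. The shared clusters likewise held more of the UMIs than of the cells, 46.7% against 40.0% in shZdhhc17 and 44.6% against 38.4% in shSCR, and low-UMI clusters are left out of both sets. These intervals cover counting error only, and none of them covers the spread between mice, which is unknown.

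Cluster 3 had the highest ratio of the 7. It held 494 shZdhhc17 cells, 6.23% of that library's cancer cells (5.71 to 6.79), and 107 shSCR cells, 1.72% (1.41 to 2.08), a ratio of 3.61 (2.94 to 4.44). Cluster 1 was the largest in cells, with 587 shZdhhc17 cells (7.40%, 6.84 to 8.00) and 146 shSCR cells (2.35%, 1.99 to 2.76), a ratio of 3.15 (2.63 to 3.76). The shZdhhc17 library supplied 82.2% of the cells of cluster 3 and 80.1% of those of cluster 1.

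The next 4 clusters had ratios close to each other. Cluster 32 had 347 shZdhhc17 cells (4.38%) and 93 shSCR cells (1.498%), a ratio of 2.92 (2.33 to 3.66). Cluster 49 had 307 shZdhhc17 cells (3.87%) and 84 shSCR cells (1.35%), a ratio of 2.86 (2.25 to 3.63). Cluster 34 had 337 shZdhhc17 cells (4.25%) and 97 shSCR cells (1.56%), a ratio of 2.72 (2.18 to 3.40), and cluster 35 had 333 (4.20%) and 97 (1.56%), a ratio of 2.69 (2.15 to 3.36). The intervals of these 4 overlapped one another and those of clusters 3 and 1, so their order within the group is not resolved by the cell numbers.

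Cluster 62 stood at the limit of the rule. It had 256 shZdhhc17 cells (3.23%) and 100 shSCR cells (1.61%), a ratio of 2.00 with a counting interval of 1.59 to 2.52. Of the 21 pairs of enriched clusters, 2 had ratio intervals that did not overlap, cluster 3 against cluster 62 and cluster 1 against cluster 62. Just outside the limit lay cluster 108 with a ratio of 1.91 (1.43 to 2.55) and cluster 107 with 1.79 (1.35 to 2.37). Cluster 118 had a ratio of 2.07 but a median of 924 UMIs, which kept it out.

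**Figure D1:**
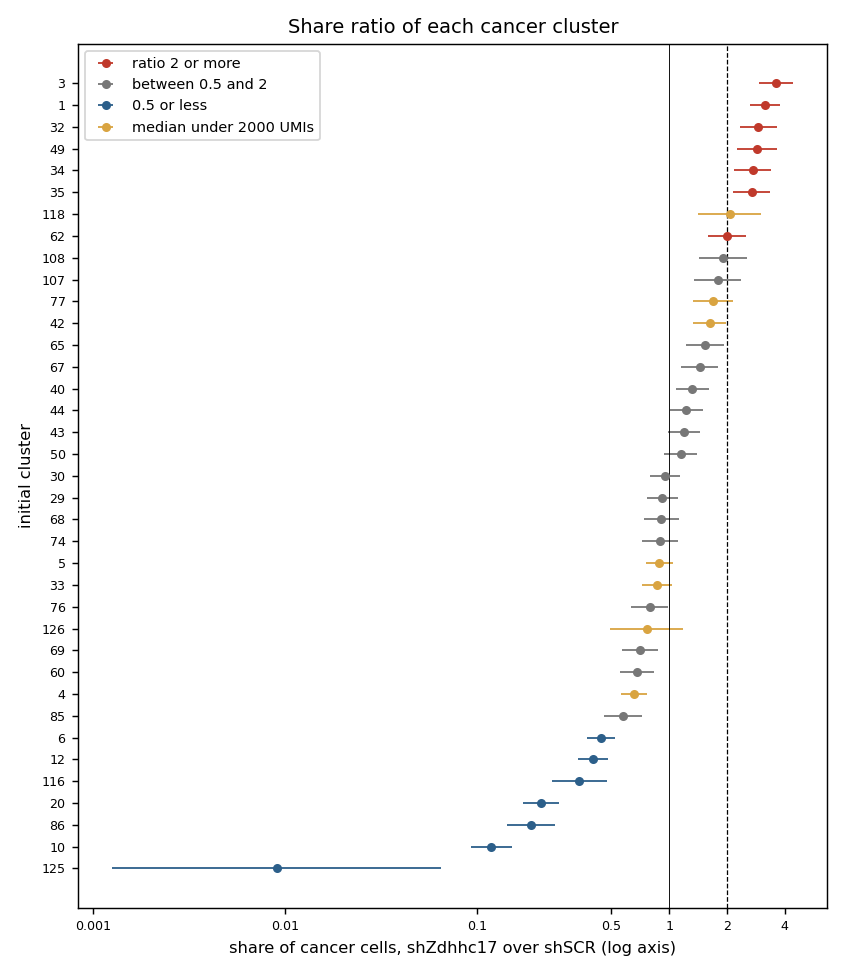
Share of shZdhhc17 cancer cells over share of shSCR cancer cells (log axis) for each of the 37 initial clusters of at least 50 cancer cells, with 95% counting intervals; red points are the 7 enriched clusters, blue those with a ratio of 0.5 or less, grey those between, and yellow those with a median under 2000 UMIs. The dashed line is the ratio of 2 that the rule used; the red points run between 2.00 and 3.61, and cluster 62 lies on the line.

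Of the 30 cancer clusters with a median of at least 2000 UMIs, these 7 (23.3%) had a ratio of at least 2, which the rule fixed. As many, 7 (23.3%), had a ratio of 0.5 or less, and 16 lay between, so the cancer cells were split by library in both directions. The control-enriched clusters reached further from 1 than the shZdhhc17-enriched ones, with a lowest ratio of 0.00900 in cluster 125, which held 1 shZdhhc17 cell and 87 shSCR cells. Among 59 clusters of the other cell types, taken as shares of their own type and with the same minimum of cells and UMIs, 1 (1.69%) had a ratio of at least 2 and 6 (10.2%) a ratio of 0.5 or less. Each of these clusters comes from the same 2 libraries, so the counts describe the libraries and are not a test.

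The enriched clusters held 12.4% of all shZdhhc17 cells (11.9 to 12.8) and 3.17% of all shSCR cells (2.94 to 3.40), a ratio of 3.91 (3.61 to 4.23). Cancer cells outside them made up 24.5% of all shZdhhc17 cells (23.9 to 25.1) and 24.0% of all shSCR cells (23.4 to 24.5), with overlapping intervals and a ratio of 1.02 (0.988 to 1.06). The cancer cell share of the whole library was 36.9% in shZdhhc17 and 27.2% in shSCR. With the enriched cells taken out of the denominator too, the other cancer cells came to 27.9% of shZdhhc17 cells and 24.8% of shSCR cells, a ratio of 1.13 (1.09 to 1.17). Since the members were picked for a high share in shZdhhc17, a smaller difference among the remaining cells was set by the choice.

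On the UMAP the enriched clusters lay side by side in a band on the low-x side of the cancer cells. Their median x ranged from 1.14 in cluster 32 to 1.23 in cluster 62, against 1.20 to 1.37 in the 23 other clusters of at least 2000 median UMIs. Along y they spread widely, from 0.44 in cluster 3 to 0.64 in cluster 49. Among the 23, clusters 65, 40, 108 and 67 lay at a lower x than cluster 62, and their ratios were 1.54, 1.32, 1.91 and 1.44. The low-UMI clusters 118, 42, 77 and 4 also lay there, with ratios of 2.07, 1.62, 1.70 and 0.657. UMAP axes have no unit, and the map was made from the same genes as the clusters, so position is not independent of membership.

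**Figure D2:**
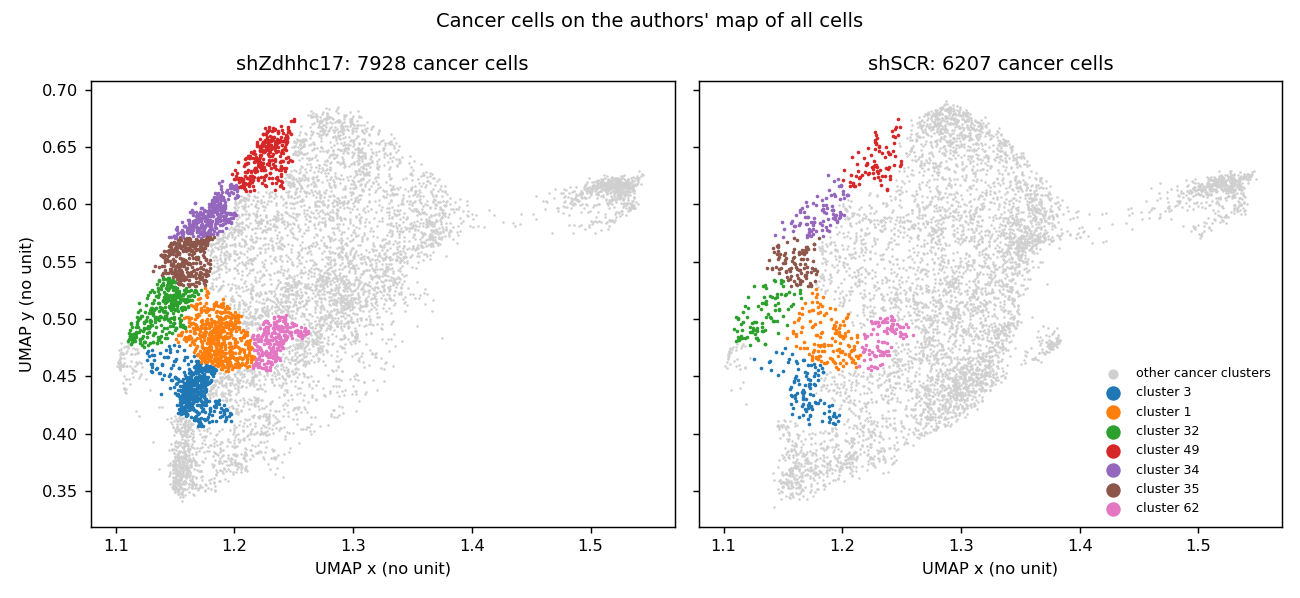
Authors' UMAP coordinates (no unit) of the cancer cells of shZdhhc17 (left, 7928 cells) and shSCR (right, 6207 cells), each point a cell, with the 7 enriched clusters in colour and the other cancer clusters in grey. The coloured clusters lie side by side at low x in both libraries and are more thickly filled in shZdhhc17 (2661 cells) than in shSCR (724 cells).

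The library makeup changed along that axis. The cells of the 30 deeper clusters were cut into 10 bins of nearly equal size by x. Bin 1, with the lowest x, held 80.3% shZdhhc17 cells (932 of 1160), and bin 2 held 79.6%. Bins 5 and 6, in the middle, held 61.6% and 46.4% shZdhhc17 cells, and bin 10 held 35.1%. Enriched cells made up all cells of bin 1, 87.1% of bin 2, 45.9% of bin 3, 44.0% of bin 4, 14.8% of bin 5 and 0 of the last 5 bins. The step between bins 5 and 6, where enriched cells ended, was the largest between neighbouring bins. These percents include the enriched cells, whose high shZdhhc17 share the rule set. Among the other cells alone, shZdhhc17 cells made up 67.8% of bin 2 (101 of 149), 66.8% of bin 3, 61.7% of bin 4 and 60.2% of bin 5. This remainder, too, was shaped by the choice, since clusters with a ratio of at least 2 were taken out of it.

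Neighbouring cells were mostly of the same cluster. Over all enriched cells, 92.6% of the 30 nearest neighbours belonged to the cell's own cluster, 3.61% to another enriched cluster and 3.75% to other cancer clusters. Cluster 62 had the most neighbours in other cancer clusters, 9.34%, and cluster 32 the fewest, 0.962%. Enriched shZdhhc17 cells had a median of 80.0% shZdhhc17 cells among their neighbours, and enriched shSCR cells had 78.3%. Most neighbours came from the cell's own cluster, and the rule chose clusters with a high shZdhhc17 share. Both values were therefore largely set by the choice and do not measure how well the libraries mix.

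Depth was compared between the libraries within the same clusters, since the rule had used only the median over both. Enriched cells of shZdhhc17 reached a median of 12559 UMIs (95% interval of the median 12232 to 12825, middle 50% of cells 8664 to 16972) and those of shSCR 15529.5 (14718 to 16131, middle 50% 8764.5 to 21126.8), a ratio of 0.809. Without cluster 32 the medians were 12919.5 in shZdhhc17 and 16396 in shSCR, a ratio of 0.788. Over all 7 clusters the median was 3619 detected genes in shZdhhc17 and 4017.5 in shSCR, a ratio of 0.901. In the shared clusters, with ratios between 0.5 and 2, the UMI ratio of the libraries was 0.800 (11692 against 14614), and in the control-enriched clusters it was 0.747 (11501 against 15402.5). The lower depth of shZdhhc17 cells was therefore present in all 3 of these sets. In the low-UMI clusters the ratio was 0.982 (896 against 912), with overlapping intervals. The part of depth in the share differences was not tested.

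**Figure D3:**
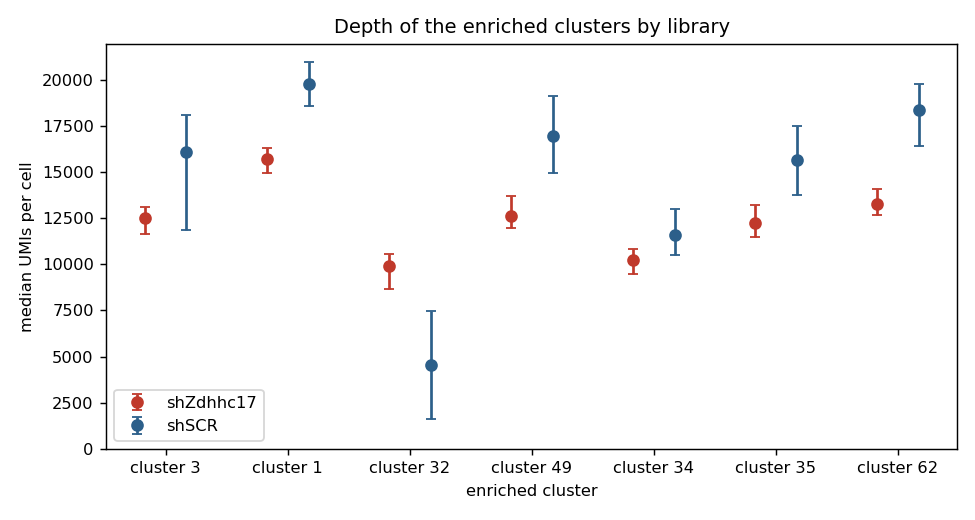
Median UMIs per cell in each enriched cluster for shZdhhc17 (red, left) and shSCR (blue, right), with 95% order-statistic intervals of the median. The shZdhhc17 median is lower in 6 clusters and higher in cluster 32, at 9881 against 4536.

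Median UMIs were lower in shZdhhc17 in 6 of the 7 enriched clusters, and in 28 of the 30 deeper cancer clusters (93.3%). Cluster 1 was the deepest, with 15714 UMIs in shZdhhc17 and 19759.5 in shSCR (ratio 0.795). Cluster 62 followed with 13289.5 and 18344.5 (0.724), and cluster 49 had 12624 and 16975 (0.744). In these 3 the intervals of the medians did not overlap.

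In cluster 35 the medians were 12211 UMIs in shZdhhc17 (11485 to 13224) and 15628 in shSCR (13751 to 17485), a ratio of 0.781, again with separate intervals. In cluster 3 they were 12492.5 (11617 to 13106) and 16064 (11876 to 18066), and in cluster 34 they were 10217 (9478 to 10802) and 11567 (10525 to 12976). The intervals of clusters 3 and 34 overlapped between the libraries.

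Cluster 32 went the other way. Its median was 9881 UMIs in shZdhhc17 cells (8663 to 10544) and 4536 in shSCR cells (1641 to 7460), a ratio of 2.18, and a median of 3042 detected genes in shZdhhc17 and 1752 in shSCR. Cells under 2000 UMIs made up 21.0% of its shZdhhc17 cells (16.9 to 25.7, 73 of 347) and 40.9% of its shSCR cells (30.8 to 51.5, 38 of 93). Among its cells of at least 2000 UMIs, the medians were 11428 UMIs in shZdhhc17 (10585 to 12097) and 12020 in shSCR (7811 to 13461), a ratio of 0.951. Without its cells under 2000 UMIs, cluster 32 therefore no longer had a higher median of UMIs in shZdhhc17, and the 2 intervals overlapped. Its median of detected genes among these cells was still higher in shZdhhc17, at 3407 against 3303 in shSCR.

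**Figure D4:**
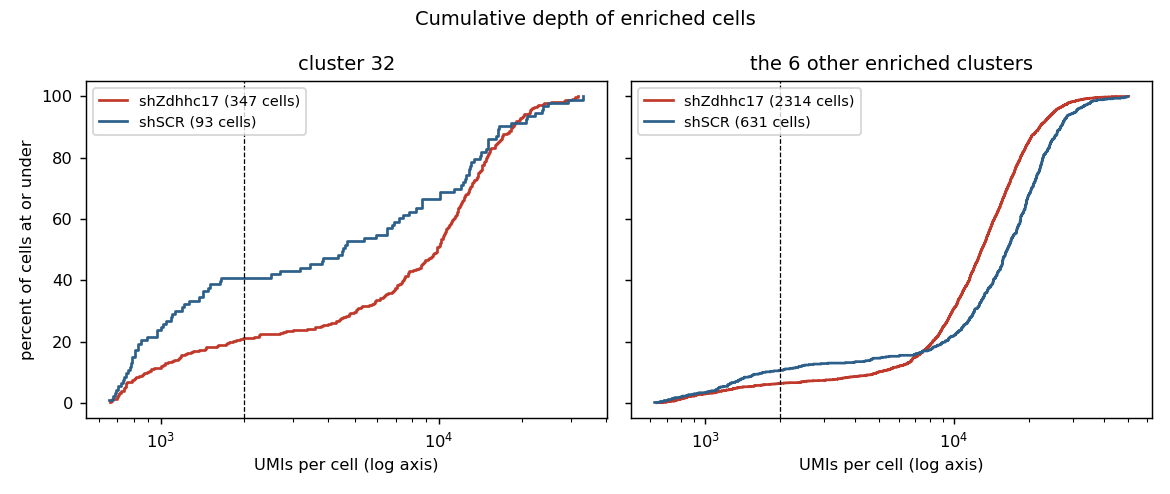
Percent of cells at or under a given number of UMIs (log axis) for cluster 32 (left) and the 6 other enriched clusters (right), in shZdhhc17 (red) and shSCR (blue); the dashed line marks 2000 UMIs. In cluster 32 the shZdhhc17 curve reaches 21.0% at the dashed line and the shSCR curve 40.9%, while in the 6 others they reach 6.35% in shZdhhc17 and 10.6% in shSCR.

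Shallow cells were spread unevenly over the band. In all, 8.27% of enriched shZdhhc17 cells (7.25 to 9.38) and 14.5% of enriched shSCR cells (12.0 to 17.3) had under 2000 UMIs. After cluster 32, cluster 3 had the most, 12.6% in shZdhhc17 and 20.6% in shSCR, and then cluster 34, 10.7% and 18.6%. Cluster 62 had 1.17% and 4.00%. Cluster 35 was the exception in direction, with 6.61% in shZdhhc17 and 5.15% in shSCR, and its intervals overlapped.

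The share of enriched cells was higher in shZdhhc17 in each of 10 classes of depth. The rule chose the clusters for a higher share in shZdhhc17, so this direction was largely set by the choice. Cancer cells were sorted into these classes by UMIs over both libraries, and the share of enriched cells was taken within each class. In the lowest class (513 to 871 UMIs) it was 10.2% in shZdhhc17 and 6.03% in shSCR, a ratio of 1.68 (1.16 to 2.46), the smallest of the 10. In the seventh class (13429 to 15583 UMIs) it was 41.0% and 10.5%, a ratio of 3.91 (3.06 to 5.00), the largest. In the top class (22378 to 58068 UMIs) it was 46.8% and 15.7%, a ratio of 2.98 (2.50 to 3.55). The low share of enriched cells in the shallow classes of both libraries was in part set by the choice, since clusters with a median under 2000 UMIs could not be members.

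Detected genes were also compared at matched depth. Within 10 classes of UMIs among the enriched cells, the ratio of median detected genes lay between 0.999 and 1.02 in 8 classes. The exceptions were the lowest class, at 0.960 (697 genes in 229 shZdhhc17 cells and 726 in 110 shSCR cells), and the second, at 1.20 (2198 genes in 288 shZdhhc17 cells and 1839 in 50 shSCR cells). The second class spans a wide range, 2258.6 to 7406.2 UMIs, so cells within it can still differ in depth. In the shared and control-enriched clusters the same classes gave ratios of 0.976 and 1.07.

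The mitochondrial percent, the share of a cell's UMIs from mitochondrially encoded genes, was compared between the libraries too. Enriched cells had a median of 8.08% in shZdhhc17 (7.99 to 8.15) and 8.06% in shSCR (7.86 to 8.28), a difference of 0.022 percentage points. Within the 10 classes of UMIs among the enriched cells, the median was lower in shZdhhc17 in 7, among them all 6 classes above 11395.2 UMIs, where the difference ran from -1.56 to -0.47 points. It was higher in shZdhhc17 in classes 2 to 4, by 0.62, 0.41 and 0.20 points, and lower again in the lowest class (-0.87 points). By cluster the difference was above 0 in 3 of 7, against 12 of 30 deeper cancer clusters (40.0%). It ran from -0.61 points in cluster 49 (8.02% in shZdhhc17 and 8.63% in shSCR) to 0.93 points in cluster 32 (8.07% and 7.15%). Among cells of at least 2000 UMIs, cluster 32 had 8.58% in shZdhhc17 and 9.03% in shSCR, a difference of -0.44 points.

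The medians of the enriched shZdhhc17 cells were close from cluster to cluster, between 8.02% in cluster 49 and 8.25% in cluster 35. Those of shSCR cells ranged more widely, between 7.15% in cluster 32 (6.26 to 8.14) and 8.63% in cluster 49 (8.05 to 9.47). These 2 intervals overlapped, and the clusters held fewer shSCR cells (93 and 84) than shZdhhc17 cells (347 and 307). Over all 7 clusters, both enriched medians were above those of the shared clusters, 7.64% in shZdhhc17 and 7.55% in shSCR, with separate intervals in each library. The control-enriched clusters had 7.61% and 7.87%, and in shSCR their interval (7.70 to 8.06) overlapped the enriched one (7.86 to 8.28). Single shared clusters ran from 3.25% and 4.02% in cluster 76 to 8.48% and 8.43% in cluster 29. Among control-enriched clusters, cluster 6 had 6.00% and 6.15%, and cluster 10 had 8.68% and 8.33%. Higher medians were thus not particular to the enriched clusters. Enriched cells without a single mitochondrial UMI were few, 30 of 2661 in shZdhhc17 (1.13%) and 11 of 724 in shSCR (1.52%), against 0.757% and 1.13% in the shared clusters, 0.450% and 0.703% in the control-enriched clusters, and 13.1% and 13.2% in the low-UMI cancer clusters.

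The authors also reclustered all cancer cells into 186 finer groups, which gave a second partition of the same cells. The enriched clusters were not kept together by it. Their 3385 cells fell into 137 of the 186 groups, and 6 groups were made up of at least 90% enriched cells, with 181 cells in all. Cluster 49 was kept together most, with 17.9% of its cells in its largest group, and cluster 1 least, with 7.23%. The median over the 23 other clusters of at least 2000 median UMIs was 10.9%.

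Of the 142 reclustering groups with at least 50 cells, 22 (15.5%) had a share ratio of at least 2. Enriched cells were the majority in 35 groups, which held 64.3% of all enriched cells, and 19 of those 35 had such a ratio. Since the same shares chose the enriched clusters, a high ratio in these groups was set by the rule. Within the 35 groups, the enriched cells had a ratio of 3.30 (1759 shZdhhc17 and 417 shSCR cells). The cells there that came from other initial clusters had a ratio of 0.974 (0.861 to 1.10, 524 shZdhhc17 and 421 shSCR cells). Over all 142 groups, cells from other initial clusters had a ratio of 0.765 (0.749 to 0.781). It was 0.832 in groups with 1 to 50% enriched cells and 0.586 in those with under 1%. These remainders were shaped by the choice, since clusters with a ratio of at least 2 were taken out. The 76 groups with 1 to 50% enriched cells had a median ratio of 1.03, and the 31 groups with under 1% had a median of 0.579.

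**Figure D5:**
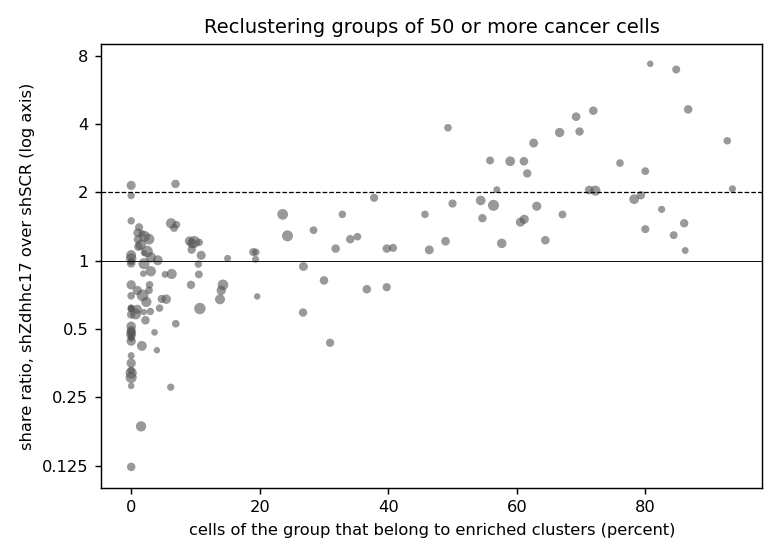
Share ratio of shZdhhc17 over shSCR (log axis) against the percent of cells from enriched clusters, for the 142 reclustering groups of at least 50 cancer cells; each point is a group and its area grows with its number of cells. Groups with over 50% enriched cells have ratios between 1.11 and 7.36, and groups under 1% between 0.124 and 2.15; the dashed line is a ratio of 2.

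The genes behind the clustering are known only as a set. The authors marked 1000 of 28523 genes (3.51%) as the most variable over all cells, and these made the map. Of the neutrophil-attracting ligands and cytokines listed for this work, 6 of 9 were among them: Cxcl1, Cxcl2 and Cxcl3, which draw neutrophils through Cxcr2, the monocyte attractant Ccl2, the macrophage growth factor Csf1 and the cytokine Il6. Of the hypoxia and glycolysis genes, 4 of 10 were, Hilpda, Bnip3, Vegfa and Ndrg1, and of the mesenchymal and invasion genes 4 of 10, Fn1, Zeb1, Zeb2 and S100a4. Of the 16 genes listed as 4T1 and epithelial genes, Lcn2 and Spp1 were among the variable genes, while Krt8, Krt18 and Epcam were not. Zdhhc17 was not among them either. None of the 8 proliferation genes and none of the 94 genes that the authors flagged as cell cycle genes was among them. These lists overlap, since all of the 8 but Ccnb1 carry the cell cycle flag. Whether such genes could enter the variable set was not checked, so their absence does not show that they varied little. The marks of variable genes describe all cell types together and give no direction for the enriched clusters.

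The libraries, with 21511 shZdhhc17 cells and 22860 shSCR cells, shared 609 cell barcodes. Of the enriched cells, 59 of 2661 in shZdhhc17 and 16 of 724 in shSCR carried a barcode that also occurred in the other library. In each library this was a slightly smaller share than over all cells. The partner was a cancer cell in 17 of these 75 pairs and never an enriched cell. For scale, cancer cells made up 36.9% of shZdhhc17 and 27.2% of shSCR cells, and enriched cells 12.4% and 3.17%. No difference from these shares was tested.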

How the data were processed

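The authors deposited tables of cells and genes for 1 pooled library per group, made with the BD Rhapsody pipeline on a GRCm38 (mm10) annotation and corrected for ambient RNA, per the file headers. The submitters' processing notes list Seurat 4.1.0. The sources used here do not name the version of the Rhapsody pipeline or the tool for ambient correction. Per the file headers, the deposited counts are total UMIs and detected genes per cell, and the deposited percent is that of mitochondrial UMIs, both after ambient correction. The deposited UMAP coordinates are a score with no unit. Expression per gene and cell was not analysed here, so no gene was compared between cells or libraries, and no doublet caller was run beyond the authors' doublet labels.

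The libraries held 21511 cells (shZdhhc17, 172527305 UMIs) and 22860 cells (shSCR, 214842365 UMIs), with at least 500 UMIs per cell and mitochondrial percents up to 15.0%. Shares have exact (Clopper-Pearson) 95% binomial intervals, share ratios log-normal 95% counting intervals, and medians order-statistic 95% intervals. All cover counting error over cells only. There was no test between groups. Clusters with a ratio of 0.5 or less are called control-enriched and those between 0.5 and 2 shared. Genes are named only where the gene table lists or flags them. The members, lists and comparisons were chosen with earlier results of these data known. Python 3.11.15, pandas 2.3.3, numpy 2.4.6, SciPy 1.17.1 and matplotlib 3.10.9 were used. The rule was also run on simulated cells drawn independently, with no spread between mice and none in UMIs within a cluster. That run therefore does not show how the rule behaves under such spread. Alternatives changed the limits of the rule, the denominator and the filters on UMIs and mitochondrial percent, matched the libraries on UMIs, or left out clusters.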

Additional observations from a re-analysis of the deposited data

How the results depend on the processing

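No paired analysis was possible because each group is 1 library. No replicate could be left out for the same reason, and the unknown spread between mice limits every value. The share ratio of the enriched clusters (2.88) stayed above 1 under all 20 alternatives, which the choice of members by this ratio largely fixed. It was 2.58 with a limit of 1.5 in place of 2 (10 clusters, 40.4% of shZdhhc17 and 15.6% of shSCR cancer cells), 3.35 with a limit of 3 (2 clusters, 13.6% and 4.08%), and 3.91 as a share of all cells (12.4% and 3.17%). With the interval's lower bound at least 2, 6 clusters remained, without cluster 62. Other minimum cluster sizes (20 or 100 cells) or a median of at least 5000 UMIs gave the same values, and no minimum gave 34.8% of shZdhhc17 cancer cells. Among cells of at least 2000 UMIs the shares were 38.5% and 12.6%, and at low mitochondrial percent 25.7% and 8.97%. Leaving out each cluster in turn gave 26.2% to 30.3% of shZdhhc17 and 9.31% to 10.3% of shSCR cancer cells, and ratios between 2.75 and 3.02. Chosen after the data were seen, a fresh choice of members among cells of at least 2000 UMIs kept all 7 clusters and added cluster 77 (39.7% and 13.1%), and leaving out low-UMI clusters gave 41.0% and 14.2%. The mean of single clusters gave a library ratio of 0.983 for UMIs and 1.01 for detected genes, against 0.809 and 0.901 over all enriched cells. Cluster 32 had the only ratios above 1 among the 7 (2.18 and 1.74). Matched on UMIs, the ratio of detected genes was 1.02. The difference in mitochondrial percent stayed within its interval (-0.28 to 0.29) under its 9 alternatives. None of these 9 matched the libraries on UMIs. Within the 10 classes of UMIs, the median was lower in shZdhhc17 in 7 and higher in 3. The differences in single classes ran from -1.56 to 0.62 points, beyond that interval on both sides. The 9 alternatives therefore do not show that the small difference holds at matched depth.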
